A study of Mus musculus with 4 samples.

Results

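Of the 27179 genes in the deposited count table, 39 encode regulators of chromatin and DNA methylation and are described here. They were chosen by gene symbol, from lists of DNA methylation, polycomb, histone methylation, acetylation and deacetylation, and nucleosome remodelling genes. No measured value was used in the choice, though earlier results of these data were known when it was made. All 39 symbols were found in the table and all 39 passed the filter on low counts, with 17 to 2300 counts in a library. The RNA came from CD4+Foxp3+ regulatory T cells (Treg cells) of steady-state C57BL/6 mice, taken from the spleen together with peripheral lymph nodes. It was sequenced as 2 libraries labelled WT and 2 labelled P65KO, names that follow the labels throughout. P65 is RelA, a DNA-binding subunit of NF-kB. The series' design text calls the second group RelA/p65-deficient. Which allele or Cre was used, the age of the mice and whether mice were pooled were not stated in the labels.

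Chromatin regulators write, read and erase marks that set which genes a cell can use. DNA methyltransferases add methyl groups to cytosine in CpG dinucleotides, and TET enzymes oxidise them, which leads to their loss. Polycomb complexes keep developmental genes silent by methylating and ubiquitinating histones, while KMT2 enzymes, acetyltransferases and BAF remodellers are associated with active promoters and enhancers. In Treg cells these systems are known for their part in lineage stability: the Foxp3 locus carries a CpG-rich intronic element that is demethylated in stable Treg cells, TET enzymes act on it, and EZH2 is needed by activated Treg cells.

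Most of the 39 genes kept similar levels between the groups. In the P65KO libraries Kmt2d, Tet3, Kmt2a and Arid1a rose, by 1.63-fold, 1.55-fold, 1.45-fold and 1.31-fold, and Kdm2b and Cbx7 fell, by 1.93-fold and 1.54-fold. The other 33 did not pass the threshold (edgeR quasi-likelihood, p adjusted by Benjamini-Hochberg, BH, over all 11172 genes tested, under 0.05). The share of members called was 15.4%, against 20.7% of all genes tested. Among all genes, 9.00% rose and 11.7% fell. The DESeq2 method called the same 6 members but 11.8% of all genes, so which share was larger depends on the method. In the edgeR fit, the median log2 difference of the members was 0.03, against 0.00 for all genes. The median absolute log2 difference was 0.17, against 0.22. None of the 39 had a fitted difference of more than 2-fold, whereas 10.2% of all genes tested did. The 95% interval lay within 2-fold for 37 of the 39, and reached past it for Kdm2b and Dnmt3b. For 27 of the 33 members that did not pass, the whole 95% interval of the difference lay within 1.5-fold in either direction.

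**Figure D1:**
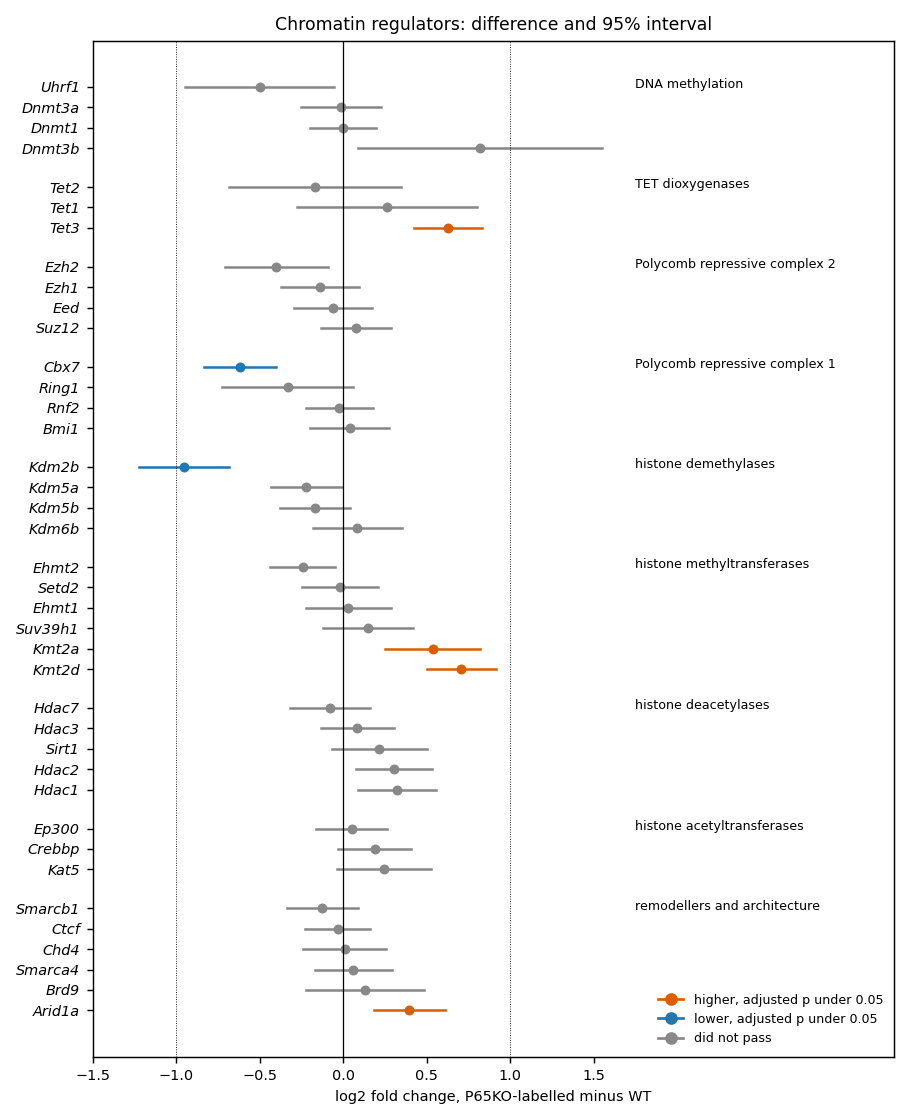
Log2 fold change (P65KO minus WT) of the 39 genes, grouped by role. Points are fitted differences from 2 libraries per group and lines are 95% intervals, with dotted lines at a 2-fold change. The 6 coloured genes passed the threshold, and the intervals of Dnmt1 (-0.20 to 0.19) and Ctcf (-0.23 to 0.16) are centred near 0.

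The libraries held 4513863 to 4624230 counts. Counts of Rela were 875 and 806 for WT against 820 and 909 for P65KO (log2 difference 0.07, SE 0.10; edgeR BH-adjusted p = 0.662). A whole-gene count also covers exons that a deletion may spare, so Rela did not check the label. Of 6 Treg markers, Cd3e, Cd4 and Foxp3 did not pass and had at least 1724 counts in each library, Il2ra rose (log2 0.43) and Ikzf2 and Ctla4 fell (-1.65 and -0.92). Their summed level was 3704 and 3619 CPM in WT against 3019 and 3489 CPM in P65KO. Xist counts were 494 and 608 for WT but 0 and 2 for P65KO, and Y-linked genes showed the reverse. Beyond Xist and the Y-linked genes, genotype label and sex therefore cannot be told apart for any gene described here, autosomal genes included. Of 16 myeloid and dendritic markers, 13 were tested and 10 rose, and none fell. Their summed level was 262 and 357 CPM (counts scaled to library size by TMM) in WT against 1455 and 563 CPM in P65KO replicates 1 and 2. Siglech, which marks plasmacytoid dendritic cells, had 0 counts in 3 of the 4 libraries. Of 8 erythroid markers, all 4 tested rose, with sums of 22.1 and 28.4 CPM in WT against 109 and 194 CPM. Of 8 B cell markers, both tested fell, Cd79b (log2 -1.59) and Cd22 (-1.45), with sums of 50.4 and 53.4 CPM in WT against 24.9 and 15.3 CPM. The B cell genes Pax5 and Ebf1 had 0 counts in every library. Of 7 CD8 T and NK markers, 6 were tested, Klrb1c fell (log2 -2.13) and the other 5 did not pass. Of 16 proliferation genes, 7 fell and none rose, with summed levels of 1302 and 1405 CPM in WT and 1151 and 953 CPM in P65KO libraries. In such bulk samples, fewer cells of a type and less RNA per cell cannot be told apart.

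Levels per gene length spanned a wide range. On the RPKM scale (counts per gene length and library size, as deposited), Chd4, the ATPase of the NuRD complex, was highest, at 79.2 and 60.7 in WT and 68.4 and 67.7 in P65KO libraries. Tet1 was lowest, at 0.621 and 0.747 in WT and 0.734 and 0.852 in P65KO libraries. Tet1, Tet2 and Dnmt3b were the members with a WT mean under the 10th percentile of all genes tested, at the 2.51, 6.47 and 6.18 percentiles. Ctcf, Smarcb1, Ehmt2, Hdac7, Rnf2 and Arid1a followed Chd4, each with a WT mean above the 80th percentile and 42.4 RPKM or more in each WT library. Neighbours in this order often lay within the spread between replicates. Ctcf and Smarcb1 had WT means of 56.6 and 55.0 RPKM, with overlapping WT libraries.

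**Figure D2:**
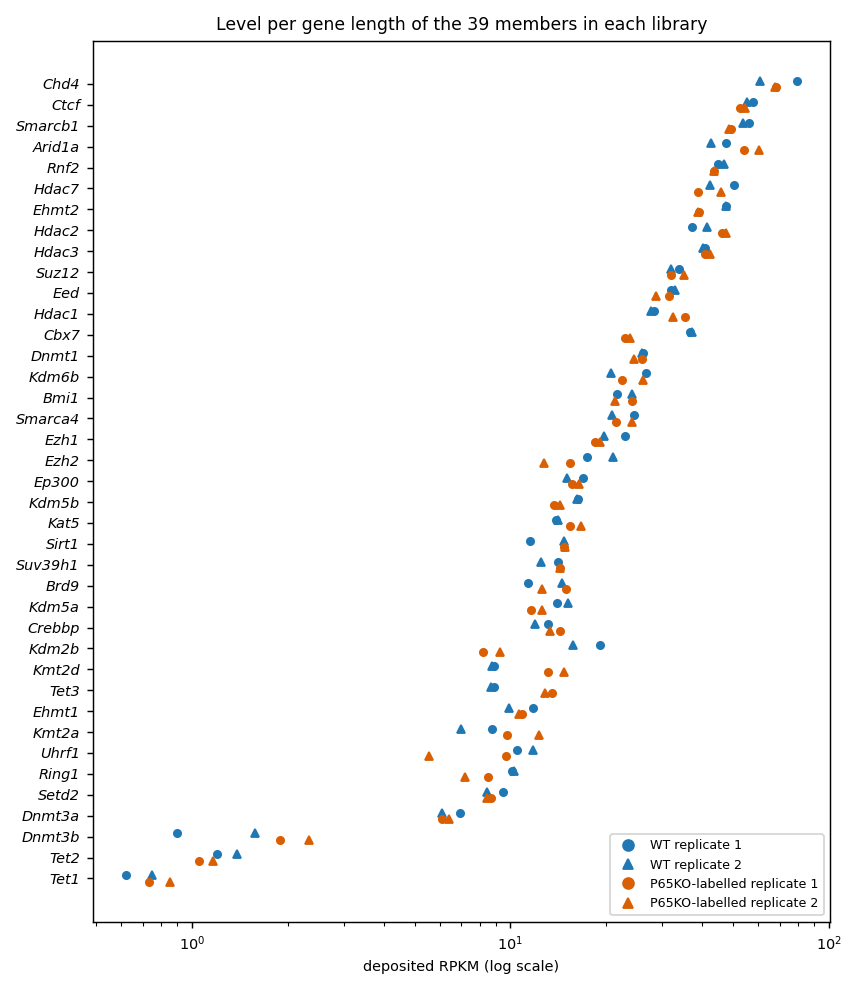
Deposited RPKM, on a log scale, of the 39 genes in each of the 4 libraries, in order of mean level. Blue symbols are WT and orange are P65KO, with circles for replicate 1 and triangles for replicate 2. Levels run from below 1 RPKM for Tet1 to 79.2 RPKM for Chd4 in WT replicate 1.

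The member with the largest fall was Kdm2b, which encodes a demethylase that binds unmethylated CpG islands and brings a variant polycomb repressive complex 1 to them. Kdm2b (Entrez 30841; GRCm38 chromosome 5, 122870664 to 122989270) stood at 102 and 84.8 CPM in WT and at 44.99 and 51.6 CPM in P65KO libraries. The groups did not overlap, and the gap between them was wider than the spread within either group. The mean fell from 93.4 ± 12.2 to 48.3 ± 4.67 CPM (SD, n = 2; log2 difference -0.95, SE 0.12; edgeR BH-adjusted p = 1.63e-04). The call held under all 11 other settings tried. Exons of Rnf34 on the opposite strand overlap 627 bases of Kdm2b exons, and Rnf34 itself had a log2 difference of 0.00.

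Among genes of polycomb repressive complex 1, Cbx7 was the member called. Its protein reads the polycomb histone methyl mark through a chromodomain. Cbx7 (Entrez 52609; chromosome 15, 79915804 to 79971143) stood at 104 and 106 CPM in WT and at 66.8 and 70.0 CPM in P65KO libraries. Both P65KO libraries were lower than both WT libraries, and replicates were close together. The mean fell from 105 ± 1.81 to 68.4 ± 2.23 CPM (SD, n = 2; log2 difference -0.62, SE 0.10; edgeR BH-adjusted p = 7.87e-04), a call that held under all 11 other settings. Its exons share 100 bases with Apobec3 on the opposite strand, and Apobec3 also fell (log2 -0.89; edgeR BH-adjusted p = 2.33e-05); the strand setting of the counting is not given, so shared reads cannot be assigned. Ring1 and Rnf2 encode the ubiquitin ligases of the complex and Bmi1 a partner that activates them. Ring1 stood at 19.97 and 20.7 CPM in WT and at 17.4 and 14.8 CPM in P65KO libraries and did not pass (log2 -0.33, 95% interval -0.72 to 0.06). The differences of Rnf2 (log2 -0.02) and Bmi1 (0.04) were smaller than their standard errors.

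The promoters of the 4 members whose calls held under all settings are shown because CpG-rich promoters are where proteins such as KDM2B and KMT2A are known to bind. The 250 bases before a RefSeq transcription start (GRCm38.p6) are given 5′ to 3′ on the gene's strand, with each CpG in capitals. Kdm2b has 4 such windows, with 12 to 38 CpG. The one shown has the fewest CpG of these and holds an NF-kB motif match, which the others do not. Gene counts cannot tell transcripts of these starts apart. All windows shown lie on the minus strand, at chr5:122988508-122988757 for Kdm2b, chr15:79932647-79932896 for Cbx7, chr6:83441679-83441928 for Tet3 and chr15:98871206-98871455 for Kmt2d.
Kdm2b: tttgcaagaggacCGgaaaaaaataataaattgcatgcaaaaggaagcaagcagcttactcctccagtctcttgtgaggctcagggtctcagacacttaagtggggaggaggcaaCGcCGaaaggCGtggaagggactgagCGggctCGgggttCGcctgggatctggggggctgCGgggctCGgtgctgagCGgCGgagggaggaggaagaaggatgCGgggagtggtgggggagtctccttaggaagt
Cbx7: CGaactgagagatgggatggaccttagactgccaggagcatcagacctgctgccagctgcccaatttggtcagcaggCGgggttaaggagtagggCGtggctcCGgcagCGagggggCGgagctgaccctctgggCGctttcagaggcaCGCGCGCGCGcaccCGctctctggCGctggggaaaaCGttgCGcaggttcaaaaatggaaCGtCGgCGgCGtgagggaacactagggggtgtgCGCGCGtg
Tet3: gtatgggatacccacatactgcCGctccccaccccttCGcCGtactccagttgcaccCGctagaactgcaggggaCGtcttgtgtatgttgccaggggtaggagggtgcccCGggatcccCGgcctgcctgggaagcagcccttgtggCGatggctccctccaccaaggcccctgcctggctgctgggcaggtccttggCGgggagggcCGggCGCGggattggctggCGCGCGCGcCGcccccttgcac
Kmt2d: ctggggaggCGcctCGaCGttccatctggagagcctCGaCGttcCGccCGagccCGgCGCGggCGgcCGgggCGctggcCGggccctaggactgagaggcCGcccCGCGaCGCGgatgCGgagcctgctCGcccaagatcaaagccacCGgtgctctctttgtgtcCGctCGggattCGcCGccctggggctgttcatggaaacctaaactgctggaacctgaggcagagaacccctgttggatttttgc

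The windows shown held 12 CpG for Kdm2b, 23 for Cbx7, 17 for Tet3 and 26 for Kmt2d. Windows were available for 35 of the 39 members. Over their 52 windows the median was 24.5 CpG, against 6 over all 32851 RefSeq windows of this length. The ratio of observed to expected CpG was above 0.6 in 86.5% of the members' windows and in 34.0% of all windows. All windows cover 27025 genes, many of which did not pass the filter on low counts, whereas all members passed it. The contrast is thus not one among genes tested. Of the 4 windows shown, those of Cbx7, Kmt2d and Kdm2b were above this ratio (0.917, 0.911 and 0.660), and that of Tet3 was below it (0.562). A match to the NF-kB consensus (the kappa-B motif, both strands) stood in 2 of the 52 windows, or 3.85%, against 3.90% of all windows. One was GGGAGTCTCC, 19 to 10 bases before the start shown for Kdm2b, and the other GGGATTTCCC, 43 to 34 bases before a start of Chd4, a gene whose level did not differ beyond its error (log2 0.01, SE 0.11). Such matches are letters in a window and do not show binding.

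Of the DNA methylation and demethylation genes, Tet3 rose and the rest did not pass. Tet3 (Entrez 194388; chromosome 6, 83362373 to 83457208) stood at 95.1 and 94.2 CPM in WT and at 150 and 143 CPM in P65KO libraries. The replicates of each group lay close together and the groups did not overlap. Its mean rose from 94.7 ± 0.573 to 146 ± 4.58 CPM (SD, n = 2; log2 difference 0.63, SE 0.09; edgeR BH-adjusted p = 4.46e-04), and the call held under all 11 other settings. Per gene length, Tet3 was the most abundant TET gene in each library, at 6.31 to 7.46 times the RPKM of Tet2 in WT and at 10.99 to 12.8 times in P65KO libraries. Tet2 (log2 -0.17, 95% interval -0.68 to 0.35) and Tet1 (0.26, interval -0.28 to 0.80) had 39 to 58 counts per library, so their intervals were wide.

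The maintenance methyltransferase gene Dnmt1, which copies methylation after replication, stood at 161 and 162 CPM in WT and at 166 and 157 CPM in P65KO libraries. The groups overlapped (log2 -0.0029, SE 0.09). Dnmt3a, a de novo methyltransferase gene, likewise stood at 66.8 and 59.6 against 60.9 and 64.7 CPM, with overlapping groups. Dnmt3b, the other de novo enzyme, was far less abundant and stood at 3.69 and 6.67 CPM in WT against 8.16 and 10.2 CPM in P65KO libraries. Its groups did not overlap, but on 17 to 46 counts a library it did not pass (log2 0.82, SE 0.34; edgeR BH-adjusted p = 0.109). Uhrf1, which guides DNMT1 to newly replicated DNA, stood at 37.3 and 42.4 CPM in WT and at 35.7 and 20.6 CPM in P65KO libraries. Its low value lay in P65KO replicate 2, the library that was also lowest in summed proliferation genes (953 CPM). The gene did not pass (log2 -0.50, SE 0.21; edgeR BH-adjusted p = 0.110). Without P65KO replicate 1 it did (log2 -0.95, edgeR BH-adjusted p = 0.00486), and without P65KO replicate 2 the log2 difference was -0.16. What part proliferation has in this was not tested.

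The core of polycomb repressive complex 2, which methylates histone H3 at silenced genes, had no member called. Ezh2, the catalytic subunit that predominates in dividing cells, stood at 45.4 and 55.3 CPM in WT and at 41.5 and 34.8 CPM in P65KO libraries. The groups did not overlap, though the distance between the nearest libraries was smaller than that between replicates (log2 -0.40, SE 0.14; edgeR BH-adjusted p = 0.0647). It was past the threshold with no scaling between libraries (edgeR BH-adjusted p = 0.0410), and again P65KO replicate 2 was lowest. Its paralogue Ezh1, which is used more in resting cells, had a log2 difference of -0.14 (95% interval -0.37 to 0.10). Per gene length the level of Ezh1 was 0.942 to 1.32 times that of Ezh2 in WT and 1.20 to 1.496 times in P65KO libraries, ranges that overlap. The scaffold genes Suz12 (log2 0.08) and Eed (-0.06), which hold the complex together, differed by less than their standard errors.

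Of the 6 histone methyltransferase genes, the KMT2 genes Kmt2d and Kmt2a rose. Their large proteins methylate histone H3 at promoters (KMT2A) and enhancers (KMT2D). Kmt2d (Entrez 381022; chromosome 15, 98831669 to 98874077) stood at 173 CPM in both WT libraries and at 264 and 299 CPM in P65KO libraries. The gap between the groups was larger than the spread in either. The mean rose from 173 ± 0.0249 to 281 ± 24.1 CPM (SD, n = 2; log2 difference 0.71, SE 0.09; edgeR BH-adjusted p = 2.08e-04), and the call held under all 11 other settings. Kmt2a (Entrez 214162; chromosome 9, 44803355 to 44881352) stood at 141 and 114 CPM in WT and at 163 and 207 CPM in P65KO libraries. Replicates of Kmt2a differed more, and the nearest libraries of the groups were closer than the replicates (log2 0.54, SE 0.13; edgeR BH-adjusted p = 0.0112). That call was lost on leaving out either WT library or P65KO replicate 2 (edgeR BH-adjusted p of 0.0572, 0.193 and 0.141; log2 0.35 without the last) and with no filter on low counts (0.160).

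The other methyltransferase genes did not pass. Ehmt2 (G9a), whose protein adds the silencing mark on histone H3 in euchromatin, stood at 189 and 192 CPM in WT and at 161 CPM in both P65KO libraries. Replicates of Ehmt2 were nearly identical, but at 1.18-fold lower the difference was small (log2 -0.24, SE 0.09; edgeR BH-adjusted p = 0.0742). It passed with no scaling between libraries (edgeR BH-adjusted p = 0.0348). Its partner gene Ehmt1 had a log2 difference of 0.03, and Setd2, which methylates histone H3 along transcribed genes, of -0.02. Suv39h1, a heterochromatin methyltransferase gene on the X chromosome, stood at 43.0 and 38.5 CPM in WT and at 44.99 and 45.4 CPM in P65KO libraries (log2 0.15, 95% interval -0.12 to 0.42). Its exons overlap the antisense gene Gm14820 over 14.6% of their bases, so its value is uncertain.

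Apart from Kdm2b, the demethylase genes among the members did not pass. Kdm6b (JMJD3), which removes the polycomb mark from histone H3 and is known as an inducible gene in activated immune cells, stood at 174 and 137 CPM in WT and at 151 and 178 CPM in P65KO libraries. Its replicates differed as much as its groups, which overlapped (log2 0.09, 95% interval -0.18 to 0.35). Kdm5a and Kdm5b remove the active promoter mark. Kdm5a stood at 150 and 164 CPM in WT and at 129 and 141 CPM in P65KO libraries (log2 -0.22, SE 0.10; edgeR BH-adjusted p = 0.136). Kdm5b had a log2 difference of -0.17 (edgeR BH-adjusted p = 0.259).

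The histone deacetylase genes had no call, though Hdac1 and Hdac2 were near the threshold. Both are catalytic subunits of the NuRD, Sin3 and CoREST corepressors. Hdac1 stood at 54.3 and 54.0 CPM in WT and at 70.4 and 65.1 CPM in P65KO libraries (log2 0.32, SE 0.11; edgeR BH-adjusted p = 0.0511). It passed with RLE size factors (edgeR BH-adjusted p = 0.0467). Hdac2 stood at 72.7 and 82.2 CPM in WT and at 93.7 and 97.7 CPM in P65KO libraries (log2 0.30, SE 0.10; edgeR BH-adjusted p = 0.0580). In both genes each P65KO library was above each WT library. Hdac7, a class IIa deacetylase known from thymocytes, had overlapping groups (log2 -0.08), Hdac3, the catalytic subunit of the NCoR complex, had a log2 difference of 0.09, and the sirtuin gene Sirt1 one of 0.22 (95% interval -0.07 to 0.50). The acetyltransferase genes Ep300 (log2 0.05), Crebbp (0.19) and Kat5 (0.24) did not pass, and the 95% interval of each included 0. Exons of Kat5 overlap Rnaseh2c on the opposite strand over 12.1% of their bases.

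Among remodelling and architectural genes, Arid1a rose and the other 5 did not pass. ARID1A is the large DNA-binding subunit that defines the canonical BAF complex. Arid1a (Entrez 93760; chromosome 4, 133679008 to 133756769) stood at 381 and 345 CPM in WT and at 449 and 506 CPM in P65KO libraries. The groups did not overlap, and the mean rose from 363 ± 25.7 to 477 ± 40.4 CPM (SD, n = 2; log2 difference 0.39, SE 0.10; edgeR BH-adjusted p = 0.0125). Leaving out either WT library or P65KO replicate 2 ended the call (edgeR BH-adjusted p of 0.0623, 0.135 and 0.146) as did using no filter on low counts (0.105). Other BAF genes did not pass: the ATPase gene Smarca4 (BRG1) had a log2 difference of 0.06, the core subunit gene Smarcb1 one of -0.13, and Brd9, which marks the non-canonical BAF complex, one of 0.13, with 95% intervals that all included 0. Chd4 stood at 499 and 388 CPM in WT and at 446 CPM in both P65KO libraries. Ctcf, which anchors chromatin loops, stood at 217 and 210 CPM in WT and at 204 and 213 CPM in P65KO libraries, with a log2 difference of -0.03 (95% interval -0.23 to 0.16).

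**Figure D3:**
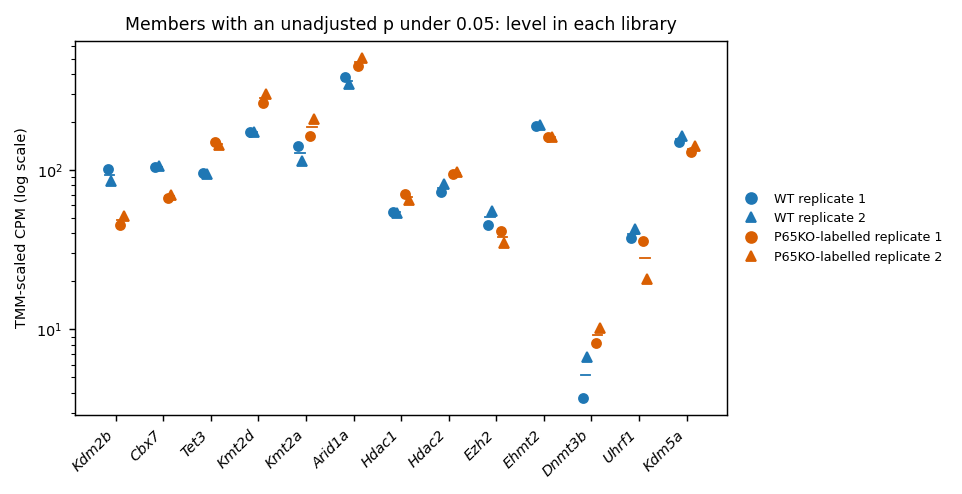
TMM-scaled CPM, on a log scale, in each library for the 13 members with an unadjusted p under 0.05, the 6 called genes first. Short lines are group means of 2 libraries. The groups of Kdm2b (84.8 CPM or more in WT, 51.6 CPM or less in P65KO libraries) and Tet3 stand apart, while those of Ezh2 and Uhrf1 nearly touch.

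Groups did not overlap in 23 of the 39 members, or 59.0%, against 60.5% of all genes tested. Of these 23, 13 were higher and 10 lower in P65KO libraries, and 17 did not pass the test. The called genes were also compared without P65KO replicate 1, the library with the highest summed myeloid markers (1455 CPM). All 6 calls held, with log2 differences of -0.86 for Kdm2b, -0.59 for Cbx7, 0.60 for Tet3, 0.79 for Kmt2d, 0.70 for Kmt2a and 0.48 for Arid1a. The remaining P65KO library was still higher in myeloid markers than either WT library (563 against 262 and 357 CPM), and their part in the differences was not tested. The genes that rose have long gene models, of 8175 bases for Arid1a to 19827 for Kmt2d. The median length was 13673 bases for members that rose and 4194 for members that did not pass. The Spearman correlation of length with log2 difference was 0.20 over the 39 members and -0.04 over all genes tested. Among all genes tested in the longest decile (6067 bases or more), 10.1% rose and 13.4% fell, with a median log2 difference of 0.00. What part gene length has in the members' differences was not tested.

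A wider list of 161 further genes of the same complexes had a like share of calls but some larger differences. Of 157 tested, 12 rose, 12 fell and 133 did not pass. The share called was 15.3% against 20.7% of all genes, and the median log2 difference was 0.08. More than 2-fold differences were seen in 8 genes (5.10%), against 0 members and 10.2% of all genes. These 8 include the Y-linked Kdm5d and Uty, and also Gadd45b and Cbx6. The rest of them either did not pass or lay under 5 CPM in the mean over all libraries. The genes that rose include the Y-linked Kdm5d and Uty. No gene was called among the 7 partners of polycomb repressive complex 2 or the 8 cohesin and architectural genes. The 4 genes not tested, Dnmt3l, Smarca1, Dpf1 and Dpf3, had 0 counts in every library.

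Relatives of called members in the wider list included Kmt2c and Cbx6, which were called, and others that did not pass. Kmt2c, which like Kmt2d methylates histone H3 at enhancers, stood at 55.1 and 44.3 CPM in WT and at 75.2 and 93.7 CPM in P65KO libraries (log2 0.76, SE 0.14; edgeR BH-adjusted p = 0.00173). Cbx6, a chromodomain relative of Cbx7, stood at 115 and 112 CPM in WT and fell to 55.8 and 52.0 CPM (log2 -1.07, SE 0.10; edgeR BH-adjusted p = 1.24e-05). Cbx6 (chromosome 15, 79823898 to 79834333) lies near Cbx7 (79915804 to 79971143) on the same chromosome. Whether the falls of the neighbouring genes are linked was not tested. The groups did not overlap for Kmt2c or for Cbx6, though replicates of Kmt2c lay further apart than those of Cbx6. Relatives named after their values were seen did not all follow: Kmt2b (log2 0.26), Kmt2e (0.04), Cbx8 (-0.20) and Kdm2a (-0.17) did not pass. The SAGA acetyltransferase genes Kat2a and Kat2b rose from 67.8 ± 4.84 to 101 ± 9.36 CPM and from 33.3 ± 4.38 to 52.3 ± 0.933 CPM (SD, n = 2 per group). The call of Kmt2c ended without WT replicate 2 (edgeR BH-adjusted p = 0.0773), as did that of Kat2a (0.0663), and that of Kat2b ended without WT replicate 1 (0.0788). All 3 ended with no filter on low counts.

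Among the wider list's methyl-CpG readers and demethylation partners, 2 of 13 tested fell, Gadd45b and Zbtb38, and none rose. Of all genes tested, 11.7% fell and 9.00% rose, so on so few genes this count sets the class apart in neither direction. Gadd45b, a stress-inducible gene linked to DNA demethylation and a known NF-kB target, stood at 35.2 and 26.9 CPM in WT and fell to 11.03 and 9.52 CPM, 3.01-fold lower (log2 -1.59, SE 0.20; edgeR BH-adjusted p = 1.15e-04). Nsd2, a histone H3 methyltransferase gene, fell 1.85-fold, from 55.3 and 47.6 to 28.7 and 26.8 CPM. Hells, a remodeller that supports maintenance methylation in dividing cells, stood at 30.8 CPM in both WT libraries and at 19.2 and 11.7 CPM in P65KO replicates 1 and 2. As for Uhrf1 and Ezh2, P65KO replicate 2 was lowest. The call of Hells ended without WT replicate 1 or WT replicate 2 (edgeR BH-adjusted p of 0.110 and 0.104) and with no filter. Zbtb38, a methyl-CpG binding factor gene, fell 1.754-fold, and Chd9, a CHD remodeller gene, 1.43-fold. Both calls ended with DESeq2 (Benjamini-Hochberg adjusted p of 0.0942 and 0.140), with no filter, and without WT replicate 1 or P65KO replicate 2, that of Chd9 also without P65KO replicate 1; without WT replicate 1 the log2 differences were -0.54 and -0.29.

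The X-linked and Y-linked histone demethylase genes differed with the sex-linked transcripts. Kdm6a (UTX), the X-linked relative of Kdm6b and known to escape X inactivation, stood at 93.5 and 86.9 CPM in WT and fell to 52.5 and 50.05 CPM in P65KO libraries (log2 -0.82, SE 0.11; edgeR BH-adjusted p = 1.59e-04). Its Y-linked partner Uty was at 0.868 and 0.646 CPM in WT and at 29.3 and 29.0 CPM in P65KO libraries. Kdm5d, the Y-linked relative of Kdm5a and Kdm5b, had 0 counts in both WT libraries and 199 and 239 counts in P65KO libraries, at least 149-fold higher against a floor of 3 counts over the WT group. Its X-linked partner Kdm5c stood at 158 and 147 CPM in WT and at 115 and 134 CPM in P65KO libraries and did not pass (log2 -0.30, SE 0.10; edgeR BH-adjusted p = 0.0613). The fall of Kdm6a and the presence of Uty and Kdm5d went with Xist and with the genotype label alike, since both split the 4 libraries in the same way. Uty and Kdm5d lie on the Y chromosome and are read here as marks of sex. For Kdm6a and Kdm5c, as for the members, the label and sex cannot be told apart.

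**Figure D4:**
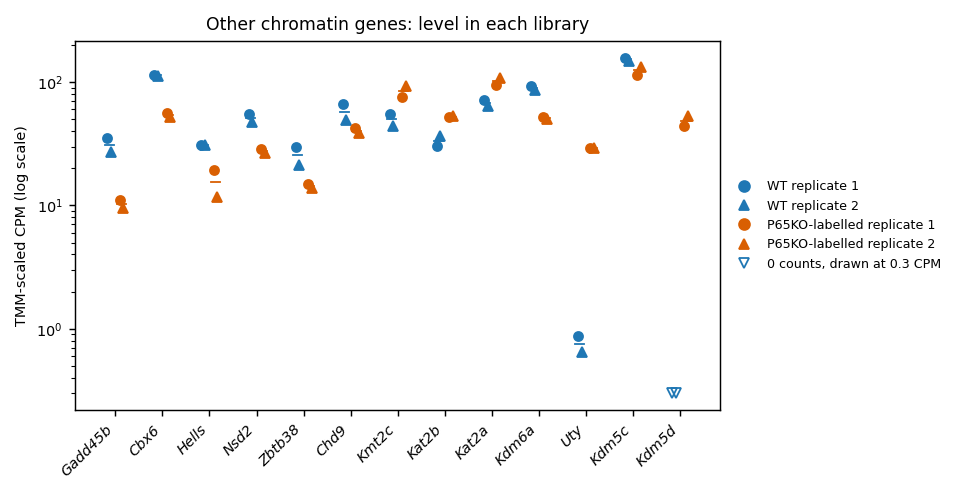
TMM-scaled CPM, on a log scale, in each library for the named genes of the wider list, with the sex-linked demethylase genes on the right. Short lines are group means of 2 libraries, and open triangles at the bottom stand for the 0 counts of Kdm5d in WT. Kdm6a falls to 52.5 CPM or less where Uty and Kdm5d are present.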

How the data were processed

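The labels' protocols name the RNeasy Plus Mini Kit for RNA and the TruSeq RNA kit for libraries. Raw counts by Entrez gene and log2 RPKM values, 1 of each per gene and library, were deposited by the authors. The submitters' processing notes name limma, Subread and featureCounts, and the builds GRCm38 and mm10; their versions and the strand setting are not known here. Sample titles gave the groups. Whether replicates are separate mice is not stated, so p-values describe the spread of these libraries, some of which may be technical. Replicates were not the same library, since their counts varied beyond sampling noise (chi-square over its degrees of freedom, 3.49 in WT and 3.97 in P65KO).

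Counts were filtered with filterByExpr, scaled by TMM and compared by a two-sided edgeR 4.0.16 quasi-likelihood test (R 4.3.3), with Benjamini-Hochberg adjustment over the 11172 genes left and a threshold of 0.05. Standard errors are the difference divided by the square root of F. RPKM values are the deposited log2 values on the linear scale. The script was tested on simulated counts. It recovered 39.7% of 1.5-fold, 69.0% of 2-fold and 94.4% of 4-fold changes, with 5 false calls. In that simulation most changes of 1.5-fold were thus missed. Alternatives were RLE or no scaling, no filter, DESeq2 1.42.0, limma-voom (limma 3.58.1), each library left out, a replicate block, and a crossed block chosen after seeing the data. The members, the wider list and its naming rule (the 12 called genes of at least 5 CPM with the largest differences, and 4 sex-linked demethylases) were chosen with earlier results of these data known. Older symbols were matched for 5 genes of the wider list. Exon overlaps came from GENCODE M21, and gene coordinates and promoter windows from RefSeq, both on GRCm38.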

Additional observations from a re-analysis of the deposited data

How the results depend on the processing

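The calls of Kdm2b, Cbx7, Tet3 and Kmt2d held under all 11 alternatives, and those of Kmt2a and Arid1a ended under 4 each, named above. Leaving out 1 library gave 4 to 7 members called (2 to 4 higher, 2 to 3 lower), 10 to 18 genes of the wider list (3 to 11 higher, 5 to 7 lower) and 916 to 1676 of all genes (331 to 680 higher, 585 to 1053 lower), against 2310 in full (1005 and 1305). A left-out library left its group with 1 library, assumed to vary like the others. With no filter, 2 members rose and 2 fell, and 8 genes of the wider list were called (3 and 5). Of all 16183 genes then tested, 771 or 4.76% were called (246 and 525). DESeq2 called 6 members (4 higher, 2 lower) and 15 genes of the wider list (6 lower). Of all genes it called 1318 or 11.8% (587 and 731). With no scaling, 4 members rose and 4 fell, so 50% of member calls were higher against 66.7%.

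Samples of the groups share only a replicate number, and their deviations correlated at -0.14. With the replicate block 4 members rose and 4 fell, with Uhrf1 and Ezh2 added to the called genes. With the crossed pairing 11 members were called (5 lower), 38 genes of the wider list (23 higher) and 2973 of all genes.

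Sign changes occurred only for members with log2 differences under 0.15 that did not pass. Dnmt1 turned to 0.0031 with RLE factors and with DESeq2, and with no scaling Bmi1 turned to -0.0085, Ehmt1 to -0.016 and Chd4 to -0.040. Over the left-out libraries the log2 difference ran from -0.042 to 0.035 for Dnmt1, from -0.087 to 0.075 for Dnmt3a, from -0.0042 to 0.15 for Suz12, from -0.047 to 0.13 for Bmi1, from -0.059 to 0.018 for Rnf2, from -0.072 to 0.27 for Kdm6b, from -0.085 to 0.059 for Setd2, from -0.076 to 0.15 for Ehmt1, from -0.21 to 0.043 for Hdac7, from -0.016 to 0.12 for Ep300, from -0.039 to 0.17 for Smarca4, from -0.044 to 0.34 for Brd9 and from -0.16 to 0.20 for Chd4. Depth limits Tet1, Tet2 and Dnmt3b, at 17 to 58 counts per library.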

Other observations

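Per gene length, the RPKM of Rnf2 was 4.46 to 4.54 times that of its paralogue Ring1 in WT and 5.12 to 6.09 times in P65KO libraries. The RPKM of Ehmt2 was 4.03 to 4.81 times that of Ehmt1 in WT and 3.61 to 3.65 times in P65KO libraries. For Ep300 over Crebbp the RPKM ratio was 1.26 to 1.29 in WT and 1.09 to 1.24 in P65KO libraries. No gene of these pairs passed the threshold, and the ratios were not tested. Among other paralogue and family pairs, the ranges of Kdm5a over Kdm5b, Kmt2d over Kmt2a, Hdac2 over Hdac1 and Dnmt1 over Dnmt3a overlapped between the groups.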
